A study of Mus musculus with 77 samples.

Results

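The 10 circadian clock genes described here were Arntl, Clock, Per1, Per2, Per3, Cry1, Cry2, Nr1d1, Nr1d2 and Dbp, taken from a count table of 55487 genes by matching each gene identifier to its mouse symbol. They were listed by name and not picked by a measured value, although earlier results of these data were known when they were chosen. All 10 were among the 14904 genes that passed the filter on low counts. RNA was sequenced from the left lateral liver lobe of 77 male C57BL/6JRj mice, 1 library per mouse, in 10 groups. The diet-induced obesity model of metabolic dysfunction-associated steatohepatitis (DIO-MASH) was made by feeding mice, 5 to 6 weeks old at the start, a diet rich in fat, fructose and cholesterol for 34 weeks, and all had a liver biopsy before treatment. DIO-MASH mice stayed on this diet and received vehicle (9, 8 and 7 mice) or the GLP-1 receptor agonist semaglutide at a target dose of 123 µg/kg (7, 8 and 8 mice) under the skin each day for 8, 16 or 24 weeks. Another set was switched to chow and given vehicle for the same periods (chow reversal, 7, 8 and 8 mice), and 7 mice kept on chow and given vehicle for 24 weeks served as lean controls. The mice were kept on a light/dark cycle, but the hour of death, the order of collection and any fasting are not given in the sources used here, so a difference in collection time between groups and an effect of treatment cannot be told apart by design.

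The mammalian clock is a loop of transcription and repression that runs in nearly every cell, and in the liver it times the genes of glucose, lipid and bile acid metabolism. Arntl (BMAL1) and Clock form the activator that binds E-boxes and turns on the Per and Cry genes, whose proteins then repress that activator. The same activator drives Nr1d1 and Nr1d2 (REV-ERBα and REV-ERBβ), nuclear receptors that in turn repress Arntl at ROR elements, and Dbp, a factor that activates genes through D-boxes. In mouse liver Arntl and Dbp peak at nearly opposite times of day, so their ratio serves as a coarse reading of clock time, and feeding time can shift the liver clock on its own.

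Promoter sequences of 9 members were found in RefSeq (GRCm38.p6), and stretches from 5 of the 6 that hold a clock motif are shown here with the motif in capitals. All are written 5′ to 3′ in the direction of the gene. Motifs were searched on both strands from 250 bases before to 50 after each start, as E-box (CACGTG), E′-box (CACGTT), D-box (TTATGTAA or TTACGTAA), ROR element (TAGGTCA) and cAMP element (TGACGTCA). The Nr1d1 stretch (chr11:98775378-98775577, minus strand) holds an E′-box read on the opposite strand 28 bases before the start, the Cry2 stretch (chr2:92434070-92434269, minus strand) holds one 166 bases before, and the Per1 stretch (chr11:69098749-69098948, plus strand) an E-box 166 bases before. The Per3 stretch (chr4:151044666-151044915, minus strand) has a pair of D-boxes 205 and 158 bases before the start, and the Arntl stretch of 30 bases (chr7:113207530-113207559, plus strand) has a ROR element 30 bases after the second of its starts.
Nr1d1: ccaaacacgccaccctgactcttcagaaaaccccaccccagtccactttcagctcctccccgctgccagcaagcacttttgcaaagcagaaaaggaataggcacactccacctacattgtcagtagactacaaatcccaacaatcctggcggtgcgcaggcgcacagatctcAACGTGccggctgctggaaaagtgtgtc
Cry2: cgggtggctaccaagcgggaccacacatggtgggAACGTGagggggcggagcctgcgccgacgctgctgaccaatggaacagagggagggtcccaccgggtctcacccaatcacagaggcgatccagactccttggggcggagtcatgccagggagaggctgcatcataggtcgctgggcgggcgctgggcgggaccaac
Per1: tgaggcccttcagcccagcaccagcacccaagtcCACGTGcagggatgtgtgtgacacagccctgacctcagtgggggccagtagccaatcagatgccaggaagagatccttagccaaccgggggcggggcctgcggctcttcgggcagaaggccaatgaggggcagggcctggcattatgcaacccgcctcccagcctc
Per3: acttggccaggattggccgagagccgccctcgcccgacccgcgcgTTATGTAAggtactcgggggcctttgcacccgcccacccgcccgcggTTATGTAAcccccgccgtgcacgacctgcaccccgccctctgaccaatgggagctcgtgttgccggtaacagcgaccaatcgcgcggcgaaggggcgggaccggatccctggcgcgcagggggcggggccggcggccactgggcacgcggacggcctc
Arntl: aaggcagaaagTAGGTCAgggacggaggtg

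Cry1 had an E-box 60 bases and an E′-box 79 bases before its start, and the windows of Clock, Nr1d2 and Dbp held none of these motifs. Per2 is named only. Of all 32851 promoter windows of the same length, 7.15% held an E-box, 4.68% an E′-box, 1.06% a D-box and 2.61% a ROR element. These matches describe the letters in the windows and were not tested as binding sites.

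In CPM (counts divided by the library size and scaled to a common total) per kilobase of the longest transcript, a scale that allows genes to be compared, Dbp was the most abundant member over the 77 mice (median 77.8, range 1.22 to 182), followed by Nr1d1 (45.8), Nr1d2 (16.1) and Cry2 (8.35). Per1 (5.69), Per3 (3.52), Per2 (2.81), Clock (2.49), Cry1 (1.46) and Arntl (0.917) were lower. Mice of the same group differed most in Arntl and Dbp, with a pooled within-group SD of 0.91 and 0.90 on the log2 CPM scale, larger than in 96.0% and 95.9% of the genes tested, against a median of 0.34 over those genes. Per3 followed with an SD of 0.84. Cry2 had the smallest SD of the 10 (0.30), so a difference of a given size was more readily resolved for Cry2 than for Arntl. Depth ranged from 8883150 to 37631072 counts per library (median 16406937). The library numbers of 3 semaglutide mice (replicates 7 and 8 at 16 weeks, replicate 8 at 24 weeks) lay outside the run of the other 74.

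Nr1d1 (chr11:98767932-98775333, minus strand, GRCm38), the repressor of Arntl, passed the test in 7 of the 13 comparisons between groups, against 3 for Clock, 2 each for Arntl and Cry2 and 1 for Per1. In chow vehicle mice its lowest, median and highest levels were 107, 214 and 280 CPM. In DIO-MASH vehicle mice they were 82.1, 104 and 123 CPM at 8 weeks, 65.2, 96.7 and 118 CPM at 16 weeks and 53.9, 70.4 and 82.7 CPM at 24 weeks. At 24 weeks every vehicle mouse lay below every chow mouse, a log2 fold change of -1.64 (SE 0.23, edgeR quasi-likelihood test, adjusted p = 5.44e-09). In this comparison 47.8% of all genes passed and 22.3% did not overlap between the groups. Of the 10 members 3 passed, all lower in vehicle, namely Nr1d1, Arntl and Clock, where 22% of all genes were lower by this test.

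**Figure D1:**
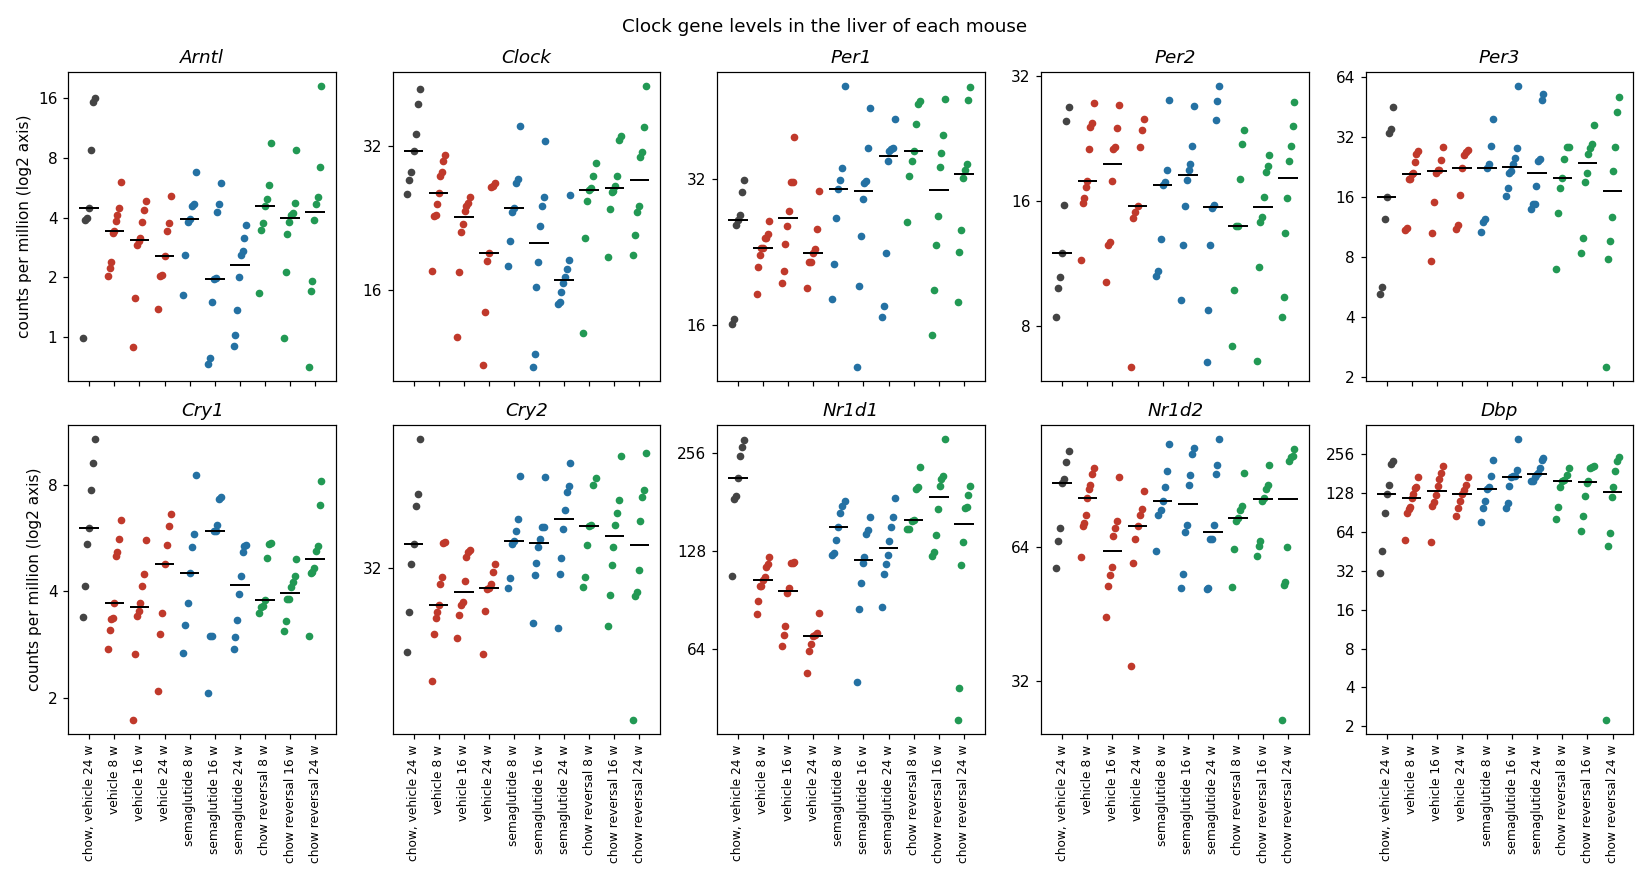
Level of each clock gene in each of 77 livers, in CPM on a log2 axis, by group (w, weeks of treatment). Points are mice and bars are group medians. Nr1d1 lies between 53.9 and 82.7 CPM in vehicle mice at 24 weeks, below all 7 chow mice, while Dbp medians lie between 118 and 180 CPM.

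Chow reversal mice had higher Nr1d1 than vehicle mice at each time. After 8 weeks of reversal the lowest, median and highest levels were 149, 160 and 232 CPM, after 16 weeks 123, 187 and 282 CPM, and after 24 weeks 38.8, 154 and 203 CPM. The log2 fold changes over vehicle were 0.78 (SE 0.21, edgeR adjusted p = 0.00256), 0.97 (SE 0.21, adjusted p = 0.00018) and 0.98 (SE 0.22, adjusted p = 0.000204). The groups did not overlap at 8 and 16 weeks, where 11.1% and 7.75% of all genes did not overlap. At 24 weeks 6 of the 8 reversal mice lay above every vehicle mouse, and the other two had 38.8 and 48.6 CPM, below every vehicle mouse. All genes passed at 32.1%, 28.2% and 36.1% in these comparisons, against 3, 1 and 2 of the 10 members.

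Semaglutide mice also had higher Nr1d1 than vehicle mice, and the test was passed at 24 weeks. Their lowest, median and highest levels were 124, 151 and 182 CPM at 8 weeks, 50.6, 120 and 163 CPM at 16 weeks and 86.0, 131 and 185 CPM at 24 weeks. The log2 fold changes over vehicle were 0.55 (SE 0.21, adjusted p = 0.0987), 0.30 (SE 0.21, adjusted p = 0.353) and 0.97 (SE 0.22, adjusted p = 0.000593) in edgeR. At 8 weeks the groups did not overlap although the test across all groups was not passed, and a fit of those groups alone gave an adjusted p of 0.000984. At 24 weeks they did not overlap either. The share of all genes that did not overlap was 1.85% at 8 weeks and 4.12% at 24 weeks, and the share that passed the test was 5.75%, 12.2% and 24.3% at the 3 times, against 0, 0 and 2 of the 10 members. At 8 and 16 weeks 2 and 1 members had an unadjusted p under 0.05, and DESeq2 also called 0 at both. Over the 3 times together, Nr1d1 passed the test for semaglutide (adjusted p = 0.00021, 30.9% of all genes) and for chow reversal (adjusted p = 4.47e-08, 47.2% of all genes).

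Direct comparison of the treatments gave 1 difference in Nr1d1, lower with semaglutide than with chow reversal at 16 weeks (log2 fold change -0.67, SE 0.21, adjusted p = 0.0271, 9.8% of all genes), and this call was lost without the 3 libraries numbered apart (-0.47, adjusted p = 0.205), with sets of consecutive library numbers as a block (-0.50, adjusted p = 0.151) or without any of chow reversal replicates 3, 5 and 6 or semaglutide replicates 7 and 8 (adjusted p from 0.0522 to 0.101). At 8 and 24 weeks the differences were -0.23 (SE 0.22) and -0.01 (SE 0.21). Chow reversal at 24 weeks remained below chow vehicle by this test (-0.66, SE 0.21, adjusted p = 0.045, 6.63% of all genes), but the call was lost without any of chow replicates 1, 2, 3, 4 and 7 or reversal replicates 1, 4, 7 and 8 (adjusted p from 0.0572 to 0.182). Between vehicle mice at 24 and 8 weeks Nr1d1 differed by -0.60 (SE 0.21, adjusted p = 0.211, 0.792% of all genes), and 0 members passed between 16 and 8 weeks (0.0403% of all genes). No member passed the edgeR test that the effect of semaglutide or of chow reversal differed between 8 weeks and a later time, and Nr1d1 differed there by 0.42 (95% interval -0.17 to 1.02) for semaglutide at 24 against 8 weeks, where 0.0604% of all genes passed, and by 0.20 (95% interval -0.39 to 0.80) for chow reversal, where 0.215% passed.

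The Nr1d1 gene overlaps Thra, the thyroid hormone receptor α gene, on the opposite strand, and the strand setting of the counting is not given in the sources used here. Thra itself differed by -0.14 to 0.11 on the log2 scale in the comparisons and passed the test in none (lowest adjusted p = 0.511). Hepatocyte markers moved with Nr1d1. All 7 (Alb, Apoa1, Ttr, Cps1, Ass1, Serpina1c and Hnf4a) were lower in vehicle than in chow mice at 24 weeks with a median log2 fold change of -1.06, and all 7 were higher at 24 weeks with semaglutide (median 0.73) and with chow reversal (median 0.90). Their summed level was 108558 to 140517 CPM in chow, 45772 to 63184 CPM in vehicle, 63145 to 118374 CPM in semaglutide and 79748 to 108731 CPM in chow reversal mice at 24 weeks. All 6 macrophage markers moved the other way between vehicle and chow (median 2.25, summed level 76.95 to 292 CPM in chow and 382 to 597 CPM in vehicle) and in chow reversal at 24 weeks (median -1.77), and 4 of the 6 were lower with semaglutide at 24 weeks (median -0.79). Between vehicle and chow mice all 6 stellate cell markers and 4 of 5 cholangiocyte markers were also higher (medians 1.15 and 2.33). Endothelial markers were mixed, with Pecam1 (0.71), Stab2 (0.73) and Lyve1 (2.27) higher, while Clec4g (-0.29) and Kdr (-0.32) did not pass. In either direction 47.8% of all genes passed between vehicle and chow. Against vehicle at 24 weeks, 24.3% passed with semaglutide and 36.1% with chow reversal. Between mice of the same group Nr1d1 also followed the mean of the hepatocyte markers (Pearson r = 0.40, adjusted permutation p = 0.0284, Spearman rho = 0.42, adjusted p = 0.008, r = 0.38 without the 2 mice farthest from the median), alone among 20 relations of the 10 members with the hepatocyte and macrophage markers. In bulk liver, fewer cells of a type and less RNA per cell cannot be told apart, and the part of cell composition in the Nr1d1 result was not tested further.

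**Figure D2:**
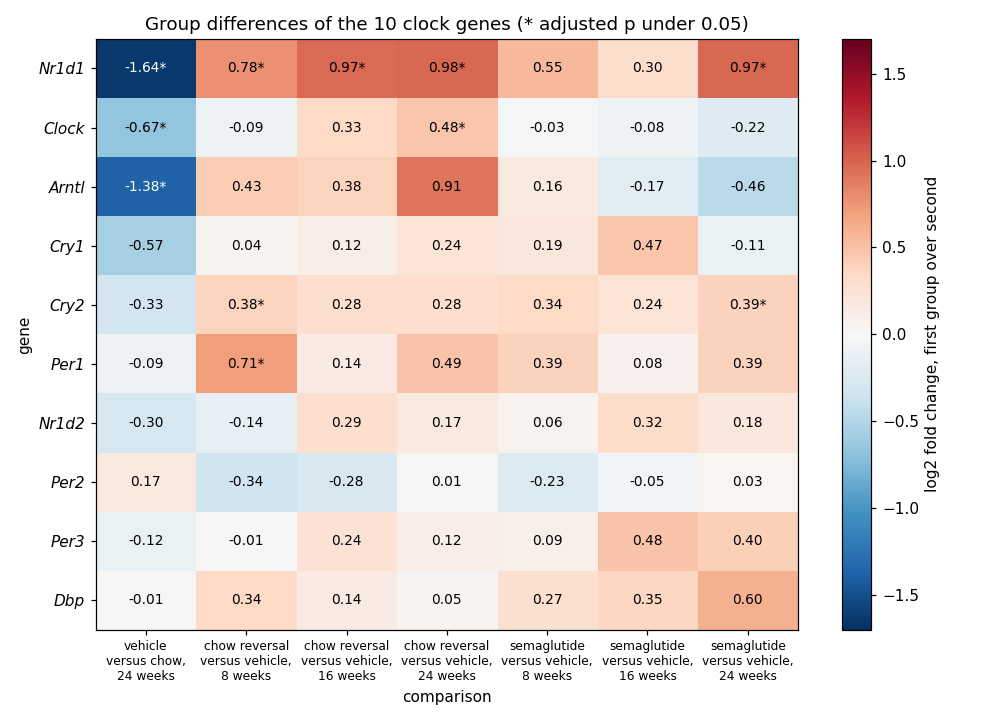
Log2 fold change of each clock gene (rows) in 7 comparisons (columns), first group over second, with an asterisk where the edgeR adjusted p was under 0.05. Nr1d1 is at -1.64 in vehicle versus chow and between 0.30 and 0.98 in the 6 treatment comparisons, while Dbp lies between -0.01 and 0.60 with no asterisk.

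The activators Arntl (chr7:113207465-113314126, plus strand) and Clock (chr5:76209868-76304792, minus strand) were lower in vehicle than in chow mice at 24 weeks. Arntl was 0.983, 4.46 and 16.1 CPM (lowest, median, highest) in chow and 1.38, 2.57 and 5.16 CPM in vehicle mice, a log2 fold change of -1.38 (SE 0.46, adjusted p = 0.0102). The groups overlapped, and 2 chow mice at 15.3 and 16.1 CPM lay far above the others. Clock was 25.4, 31.3 and 42.1 CPM in chow and 11.1, 19.1 and 26.8 CPM in vehicle mice (-0.67, SE 0.19, adjusted p = 0.00193). Both calls held when any 1 mouse was left out (highest adjusted p 0.0486 for Arntl and 0.0101 for Clock). Leaving out 1 mouse at a time cannot show how far the Arntl call rests on those 2 chow mice together, which was not tested.

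With chow reversal, Clock was higher than in vehicle mice at 24 weeks (0.48, SE 0.18, adjusted p = 0.0323), with 18.9, 27.2 and 42.8 CPM as lowest, median and highest. The call was lost without any of vehicle replicates 1, 3 and 6 or reversal replicates 3 and 5 (adjusted p from 0.056 to 0.115). Arntl was 0.707, 4.30 and 18.5 CPM in these mice, and its difference from vehicle of 0.91 (SE 0.45) did not pass (adjusted p = 0.105). Semaglutide mice had Arntl at 0.898, 2.30 and 3.66 CPM and Clock at 14.97, 16.8 and 25.3 CPM at 24 weeks, differing from vehicle by -0.46 (SE 0.47) and -0.22 (SE 0.18) with neither passing. Compared directly at 24 weeks, both activators were lower with semaglutide than with chow reversal, Arntl by -1.37 (SE 0.45, adjusted p = 0.0276) and Clock by -0.69 (SE 0.18, adjusted p = 0.00452), with 16.5% of all genes passing. The Arntl call was lost without chow reversal replicate 7, the mouse at 18.5 CPM (-0.76, adjusted p = 0.201), without semaglutide replicate 4 (-1.29, adjusted p = 0.0583) and with sets of consecutive library numbers as a block (-1.20, adjusted p = 0.0765), while the Clock call held when any 1 mouse was left out. At 8 and 16 weeks neither activator passed between these groups, and none of the 10 members passed at 8 weeks (6.16% of all genes).

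Among the repressors, Cry2 and Per1 were higher than vehicle in some treated groups. Cry2 (chr2:92403646-92434043, minus strand), a cryptochrome that joins the PER proteins in repressing the activator, was 22.8, 29.5 and 32.5 CPM in vehicle and 25.2, 38.8 and 48.5 CPM in semaglutide mice at 24 weeks (0.39, SE 0.15, adjusted p = 0.0478). It was 20.4, 27.6 and 35.5 CPM in vehicle and 29.6, 37.8 and 45.6 CPM in chow reversal mice at 8 weeks (0.38, SE 0.15, adjusted p = 0.035). Both calls were near the threshold. The first was lost without any of semaglutide replicates 1, 3, 5 and 7 or vehicle replicates 2, 3, 5 and 7 (adjusted p from 0.051 to 0.107), and the second without any of reversal replicates 1 and 5 or vehicle replicates 4, 5, 6 and 7 (adjusted p from 0.0501 to 0.0674). Over the 3 times together Cry2 passed for semaglutide (adjusted p = 0.0153) and for chow reversal (adjusted p = 0.0111), with log2 fold changes over vehicle from 0.24 to 0.39 in the 6 comparisons.

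Per1 (chr11:69095217-69109960, plus strand), a PER repressor that also responds acutely to feeding and hormonal signals, was 18.5, 23.1 and 26.2 CPM in vehicle and 26.1, 36.5 and 46.2 CPM in chow reversal mice at 8 weeks (0.71, SE 0.20, adjusted p = 0.00522), and 6 of the 7 reversal mice lay above every vehicle mouse. The call held when any 1 mouse was left out. At 16 and 24 weeks the differences were 0.14 (SE 0.20) and 0.49 (SE 0.21, adjusted p = 0.0643). With semaglutide Per1 differed from vehicle by 0.39, 0.08 and 0.39 at the 3 times without passing. Per1 and Clock also passed the edgeR test of chow reversal over the 3 times together (adjusted p = 0.00352 and 0.0385), which 47.2% of all genes passed. For semaglutide that test was passed by Nr1d1 and Cry2 alone among the members. Scaling to library totals shifted the median gene by up to 0.40 on the log2 scale between groups, and under it the calls of Cry2 and Per1, those of Arntl and Clock against chow and that of Clock against vehicle were lost, whereas Nr1d1 kept its calls against vehicle and between vehicle and chow. Relative to the median gene the called differences were close under both scalings, for example 0.40 and 0.40 for Cry2 with semaglutide at 24 weeks and -0.65 and -0.64 for Clock between vehicle and chow.

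Cry1 differed by -0.57 (SE 0.25, adjusted p = 0.0541) between vehicle and chow mice, where 3.37, 6.04 and 10.8 CPM in chow overlapped 2.09, 4.76 and 6.59 CPM in vehicle. Per2, Per3, Nr1d2 and Dbp passed none of the 13 comparisons between groups. Dbp, the output whose level swings most over the day, was 30.8, 125 and 228 CPM in chow and 84.7, 127 and 172 CPM in vehicle mice at 24 weeks, a difference of -0.01 (95% interval -0.76 to 0.74). In semaglutide mice at 24 weeks Dbp was 158, 180 and 240 CPM (0.60 over vehicle, SE 0.37, adjusted p = 0.231), and 5 of the 8 lay above every vehicle mouse. A fit of those groups alone gave an adjusted p of 0.0112 for this Dbp difference. Dbp overlaps Sphk2 on the opposite strand, and Per3 overlaps Camta1 on the same strand, so reads of these pairs may not be fully separated. Sphk2 was lower in vehicle than in chow (-0.71, edgeR adjusted p = 0.00017), higher than vehicle after 8 weeks of reversal (0.38, adjusted p = 0.0438) and lower with semaglutide than with reversal at 16 weeks (-0.44, adjusted p = 0.0499). Camta1 was lower in vehicle than in chow (-0.44, adjusted p = 0.0128) and higher than vehicle at 16 weeks with semaglutide (0.43) and reversal (0.38). Their part in the Dbp and Per3 values was not tested. Nr1d2, the closest relative of Nr1d1, was 57.3, 88.7 and 105 CPM in chow and 34.5, 71.3 and 85.1 CPM in vehicle mice at 24 weeks (-0.30, 95% interval -0.68 to 0.09). Nr1d1 alone among the members had groups that did not overlap, in the 5 comparisons given above. In the others no member was free of overlap, where the share of all genes without it was 0.899% for semaglutide against vehicle at 16 weeks, 6.91% for chow reversal against vehicle at 24 weeks, 4.35%, 1.17% and 0.678% for semaglutide against chow reversal at 8, 16 and 24 weeks, 0.51% for chow reversal against chow, and 0.309% and 0.0201% for vehicle at 24 and 16 against 8 weeks. In a single test for any difference among the 10 groups, which 59.6% of all genes passed, 5 of the 10 members passed, namely Nr1d1, Clock, Arntl, Cry2 and Per1.

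Most of the 10 genes varied with others between mice of the same group. After each group mean was subtracted, 24 of the 45 pairs of members were correlated over the 77 mice (permutation within groups, adjusted p under 0.05), 15 positively and 9 negatively, and no called pair changed sign without the 2 mice farthest from the median. One arm held Dbp, Per3, Cry2 and Nr1d2, with r = 0.81 for Per3 and Dbp, 0.81 for Per3 and Cry2 and 0.78 for Cry2 and Dbp. The other held Arntl and Clock (r = 0.75, rho = 0.78). Per2 passed with each gene of the first arm, from r = 0.30 with Dbp (adjusted permutation p = 0.024) to 0.68 with Per3. It also passed with Cry1 (r = 0.35, adjusted permutation p = 0.00602) and inversely with Arntl (r = -0.29, adjusted permutation p = 0.0405). Arntl and Clock both ran against Dbp, Per3 and Cry2, with r = -0.70 and rho = -0.77 for Arntl and Dbp (adjusted p = 4.09e-05 for r), but Nr1d2 did not pass with either (r = -0.30, adjusted p = 0.0535, with Arntl and r = 0.11, adjusted p = 0.525, with Clock). The first principal component of these deviations took 59.5% of their variance, with loadings of 0.56 for Dbp, 0.53 for Per3 and -0.53 for Arntl. Nr1d1 had a loading of 0.04 and was not significantly correlated with Arntl (r = 0.20, adjusted p = 0.318) or Dbp (r = 0.39, adjusted permutation p = 0.0789). It did pass with Cry2 (r = 0.40, adjusted permutation p = 0.0165) and inversely with Cry1 (r = -0.28, adjusted permutation p = 0.0427). Per1 correlated with no other member past the threshold.

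**Figure D3:**
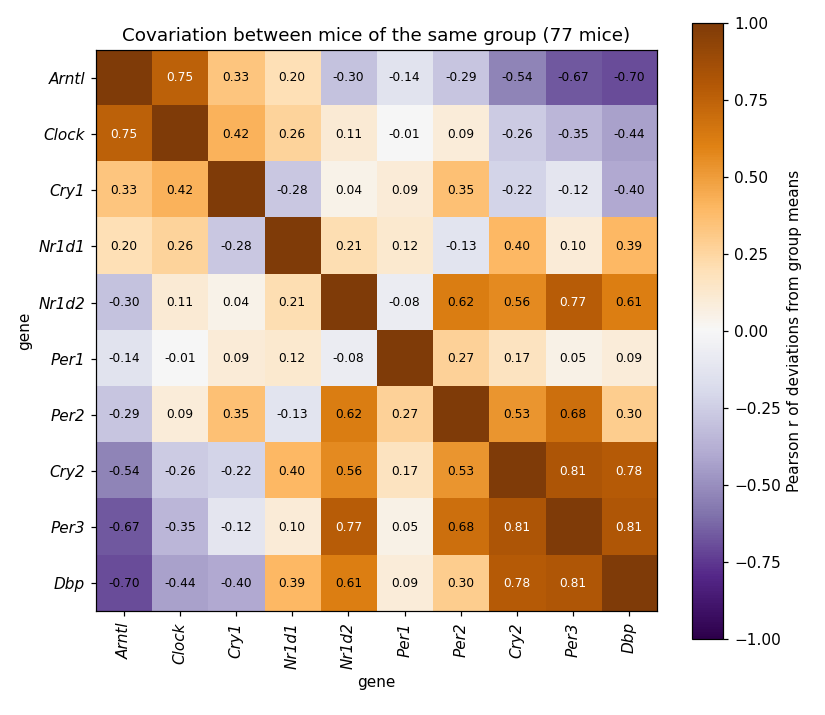
Pearson correlation between pairs of clock genes over 77 mice after each group's mean was subtracted from log2 CPM. Arntl and Clock form a positive pair (0.75) that opposes Per3 and Dbp (Arntl with Dbp, -0.70), and Per1 is near 0 with most members.

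The difference of Dbp and Arntl on the log2 CPM scale was used to place each mouse between the arms. Its median was 4.77 in chow, 4.98, 5.37 and 5.36 in vehicle, 4.93, 6.37 and 6.29 in semaglutide and 4.82, 5.24 and 5.17 in chow reversal mice at 8, 16 and 24 weeks. Every group overlapped its neighbours in this order. The spread within groups was wide, with an SD from 0.92 in semaglutide mice at 24 weeks to 2.38 in chow mice and 3.27 in chow reversal mice at 24 weeks. Chow reversal replicate 7 at 24 weeks stood apart at -2.98, with Dbp and Per3 both at 2.24 CPM and Arntl at 18.5 CPM, the lowest levels of Dbp and Per3 and the highest of Arntl among the 77 mice. Its Nr1d1 (38.8 CPM) and Nr1d2 (26.2 CPM) were also the lowest measured. Chow replicates 1 and 7 had Arntl at 15.3 and 16.1 CPM with Dbp at 30.8 and 46.0 CPM.

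**Figure D4:**
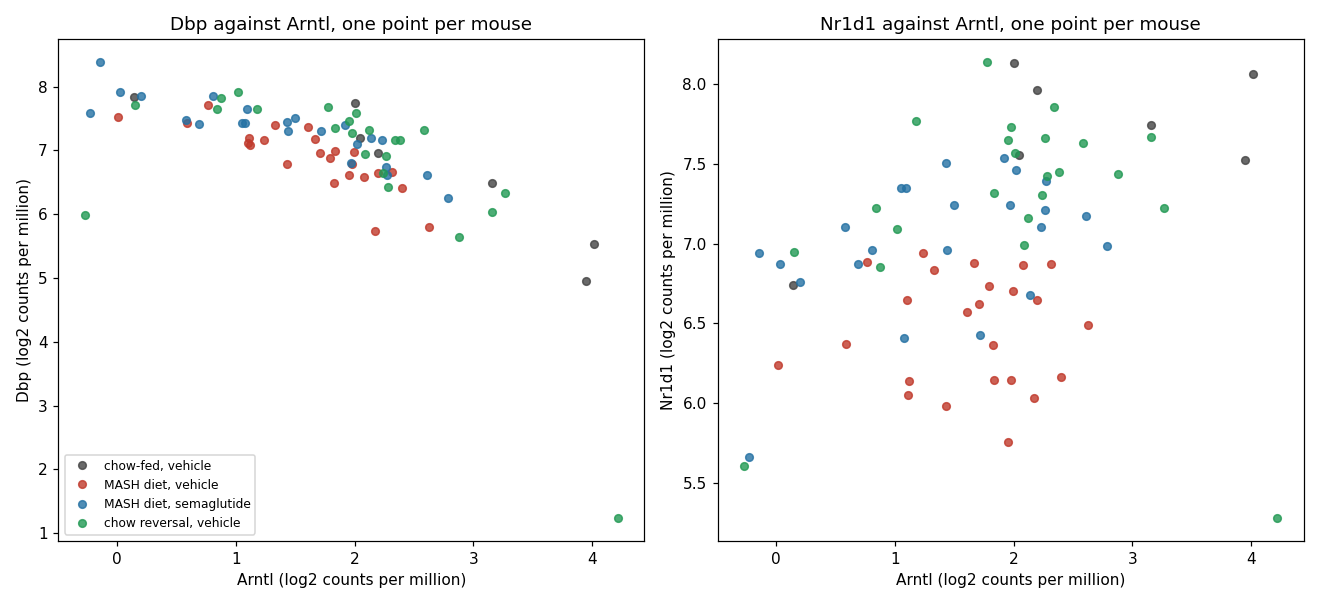
Dbp (left) and Nr1d1 (right) against Arntl, each in log2 CPM, with 1 point per mouse coloured by treatment over all times. Mice with high Arntl have low Dbp on the left, vehicle mice on the MASH diet lie low in Nr1d1 over the range of Arntl on the right, and 1 chow reversal mouse lies apart at Arntl 4.22 and Dbp 1.24.

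Group differences were then set beside this within-group axis. The 10 log2 fold changes of a comparison were treated as a vector, and its cosine with the first component would be 1 where the groups differed just as mice of 1 group did. The cosine was 0.17, 0.65 and 0.68 for semaglutide against vehicle at 8, 16 and 24 weeks, and 0.28, 0.52 and 0.78 for semaglutide against chow reversal. It was -0.0043, 0.025 and -0.22 for chow reversal against vehicle. For vehicle against chow it was 0.28, so 8.01% of the squared difference lay along the axis, against 41.7% and 46.7% for semaglutide against vehicle at 16 and 24 weeks. Since 59.5% of the variance between mice of 1 group lies along the same axis, differences of means that come from that spread alone would also lie largely along it, and no cosine was tested. Between vehicle and chow mice Nr1d1 and Arntl were both lower while Dbp differed by -0.01.

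A clock position that used none of the 10 members was also entered as a covariate in the fit. It was the mean log2 CPM of Tef, Hlf, Ciart and Usp2, genes that rise with Dbp, minus that of Npas2 and Nfil3, which rise with Arntl. With it, the Arntl difference between vehicle and chow went from -1.38 to -0.51 (SE 0.30, adjusted p = 0.158), and that between semaglutide and chow reversal at 24 weeks from -1.37 to -0.32 (SE 0.30, adjusted p = 0.443). The Arntl difference between chow reversal and vehicle at 24 weeks went from 0.91 to 0.07. Nr1d1 kept its values, with -1.64 (SE 0.23, adjusted p = 1.22e-08) for vehicle against chow, 0.98 for chow reversal and 0.97 for semaglutide against vehicle at 24 weeks. The standard error of Cry2 fell from 0.15 to 0.10, and Cry2 then also passed for vehicle against chow (-0.50, adjusted p = 3.59e-05) and for chow reversal at 24 weeks (0.39, adjusted p = 0.00122), as did Nr1d2 for vehicle against chow (-0.48, adjusted p = 0.00674). These 6 genes can themselves respond to diet, so the covariate is not a measure of the hour, and Hlf and Nfil3 both differed between vehicle and chow. Between mice of the same group Tef and Usp2 were also the genes most like Dbp (r = 0.91 and 0.86), while Nr1d1 had a loading of 0.04 on the first component. Such a covariate can move Arntl but cannot remove an Nr1d1 difference that lies off this axis, whatever its source, which was not tested.

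**Figure D5:**
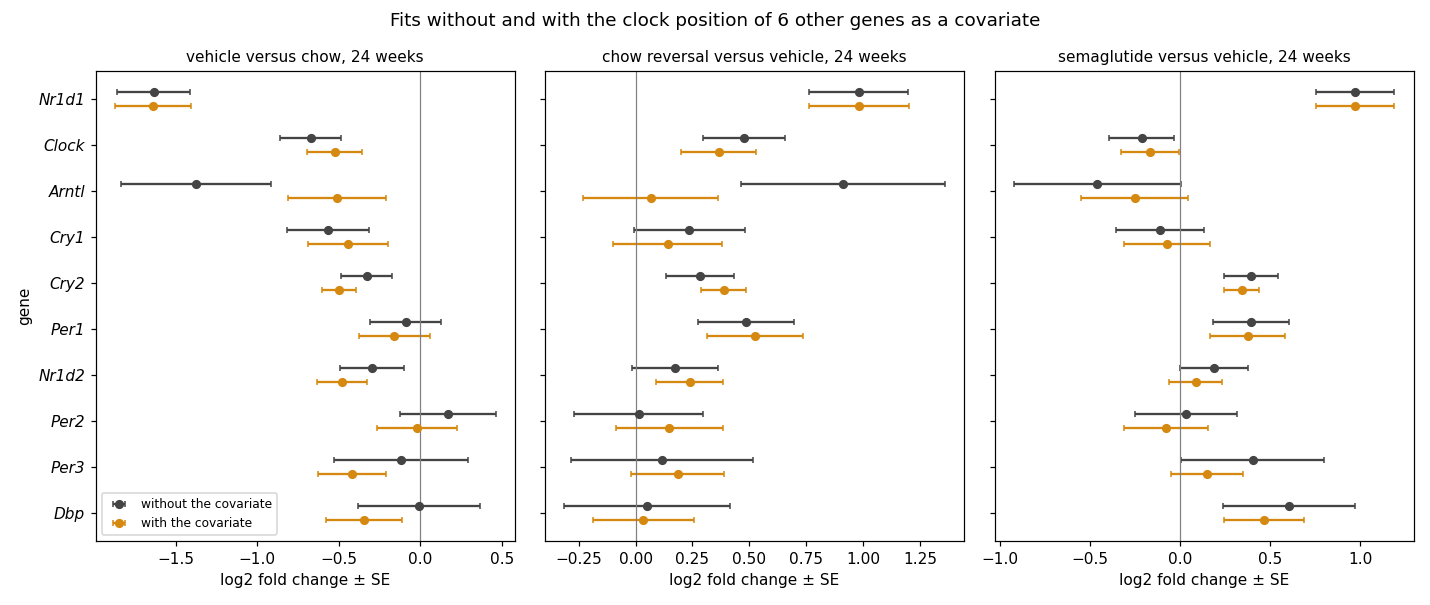
Log2 fold change with its SE for each clock gene in 3 comparisons at 24 weeks, fitted without (grey) and with (orange) a clock position made from 6 other genes. Arntl moves from -1.38 to -0.51 in vehicle versus chow and from 0.91 to 0.07 in chow reversal versus vehicle, and Nr1d1 stays at -1.64, 0.98 and 0.97.

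The sample titles carry a further number for each mouse whose meaning is not given in the labels, and its order within a group was compared with the first component after the values had been seen. In vehicle mice at 8 weeks the 2 orders nearly matched (Spearman rho = 0.97, exact permutation p = 0.000165, adjusted p = 0.00182 over 11 relations, Pearson r = 0.89 with adjusted exact p = 0.00788, n = 9), mice with higher numbers lying toward the Dbp end, and r was 0.80 without the 2 mice farthest from the median. In chow mice rho was 0.82 (adjusted exact p = 0.125, n = 7). In the other 8 groups rho lay between -0.14 and 0.40 and none passed. Over all 77 mice, with ranks taken within groups, rho was 0.34 (adjusted permutation p = 0.0213) and r was 0.30 (adjusted permutation p = 0.0594), and r was 0.27 without the 2 mice farthest from the median. The library number showed no such relation (rho = 0.0035, r = -0.057, adjusted permutation p = 1 and 0.888).

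Other components of the clock were measured as well, and 17 of the 18 listed were tested. Between vehicle and chow mice 2 were higher and 3 lower, with a median log2 fold change of -0.18 against -0.02 over all genes, in a comparison that 47.8% of all genes passed. Rora, the nuclear receptor that activates at the ROR elements where Nr1d1 represses, was lower in vehicle (-0.66, SE 0.13, adjusted p = 1.18e-05), with 48.8, 56.7 and 58.9 CPM in chow and 28.6, 31.9 and 45.7 CPM in vehicle mice. It was higher than vehicle after 16 and 24 weeks of chow reversal (0.36, adjusted p = 0.0164, and 0.49, adjusted p = 0.00102). Nfil3, a repressor at D-boxes, was lower in vehicle than in chow (-0.75, adjusted p = 0.0245) and higher after 24 weeks of reversal (1.08, adjusted p = 0.00143). Hlf, a D-box activator related to Dbp, was lower in vehicle (-0.48, adjusted p = 0.0163), and Csnk1e, a kinase that marks PER proteins for decay, and Timeless were higher (0.73, adjusted p = 1.55e-05, and 0.80, adjusted p = 0.00386). Timeless was lower than vehicle after 8 and 16 weeks of chow reversal (-0.81, adjusted p = 0.005, and -0.66, adjusted p = 0.0187), as were Fbxw11 at 8 weeks (-0.41, adjusted p = 0.0224) and Csnk1e at 24 weeks (-0.44, adjusted p = 0.00786). With semaglutide 0 of the 17 passed in edgeR at 8 and 16 weeks, where 2 and 1 had an unadjusted p under 0.05, and Fbxl21, an F-box protein that acts on cryptochromes, passed at 24 weeks (0.65, adjusted p = 0.0436).

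Metabolic genes known to cycle in the liver moved in both directions. Of 12 tested, 3 were higher and 2 lower in vehicle than in chow mice, with a median of 0.03, where 47.8% of all genes passed. Elovl3, a fatty acid elongase that cycles strongly in male mouse liver, was 32.5, 281 and 620 CPM in chow and 8.55, 13.9 and 24.4 CPM in vehicle mice at 24 weeks (-4.27, SE 0.53, adjusted p = 2.32e-10), with no overlap. It was higher than vehicle with chow reversal at all 3 times (2.01, 1.99 and 3.05) and with semaglutide at 24 weeks (1.84, SE 0.47, adjusted p = 0.00279). Noct, a phosphatase of dinucleotide cofactors, was lower in vehicle than in chow (-1.60, adjusted p = 0.000302), lower than vehicle after 16 weeks of reversal (-0.90, adjusted p = 0.0451) and higher after 24 weeks (1.26, adjusted p = 0.00501). Insig2, a sterol sensor, was lower than vehicle after 8 weeks of reversal (-0.65). Nampt, which makes the NAD+ precursor NMN, and Alas1, the first enzyme of haem synthesis, were higher in vehicle than in chow (0.71, adjusted p = 0.00173, and 1.47, adjusted p = 0.00427). Cyp2a5, a cytochrome P450, was higher in vehicle than in chow (1.12, adjusted p = 0.0151) and lower than vehicle with chow reversal (-1.40, adjusted p = 0.00237) and semaglutide (-1.10, adjusted p = 0.026) at 24 weeks. Upp2, a uridine phosphorylase (1.02, adjusted p = 0.0198), and Gys2, the liver glycogen synthase (0.62, adjusted p = 0.0184), were higher with semaglutide than with vehicle at 24 weeks.

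The genes whose deviations were most like those of Dbp, among 11689 genes ranked over 77 mice, were Tef (r = 0.91), Usp2 (0.86), Gys2 (0.84), Bhlhe41 (0.84), the member Per3 (0.81), Cyp2a5 (0.81), Inmt (0.79) and the member Cry2 (0.78), and those with the lowest r were Cdkn1a (-0.79), Pnrc1 (-0.74), Chka (-0.73) and Igfbp1 (-0.72). For Arntl they were Clpx (0.84), Ypel2 (0.84), Abtb2 (0.80), Insig2 (0.78), Asb13 (0.77), Caprin1 (0.76), St5 (0.76) and Ddc (0.76), with Por (-0.76), Usp2 (-0.76), Ciart (-0.71) and Ngef (-0.71) at the other end. Tef is a D-box activator of the same family as Dbp, and Ciart is a repressor of the CLOCK and BMAL1 pair. Igfbp1, a fasting-induced gene, and Gys2, used in glycogen storage, lay at opposite ends for Dbp.

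Libraries differed in how strongly level depended on transcript length and GC content, and between mice of the same group 7 of the 10 members followed the length slope past the threshold (Clock, Per1, Per2, Per3, Cry1, Cry2 and Nr1d2) and 5 the GC slope (Clock, Per2, Per3, Cry1 and Nr1d2). The share of all genes that followed these slopes was not counted, so the 7 and 5 cannot be read as particular to the clock genes. The 3 libraries numbered apart had the lowest length slopes of the 77. The relation was closest for Per2 and Clock with the length slope (r = 0.67, rho = 0.67 and r = 0.57, rho = 0.55, adjusted permutation p = 6.67e-05 for each), and Nr1d2 and Per2 followed the GC slope inversely (r = -0.68, rho = -0.70 and r = -0.47, rho = -0.48, adjusted permutation p = 6.67e-05 and 5e-04). Nr1d1 (r = 0.14 and 0.24, adjusted permutation p = 0.322 and 0.087) and Dbp (r = -0.11 and 0.0032) followed neither past the threshold. With both slopes as covariates, a fit chosen after the data had been seen, 5 members passed between vehicle and chow, Cry1 and Cry2 in addition to the 3 above.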

How the data were processed

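Liver RNA was sequenced in 77 mice, and the authors deposited estimated counts per gene, made with STAR 2.7.3a and Salmon 1.2.0 on GRCm38 per the labels and the submitters' processing notes, with FastQC 0.11.9, Picard and DESeq2 also named. The annotation release, the strand setting of the counting and the time of day of collection are not given in the sources used here. Depth was 8883150 to 37631072 counts per library, which limits precision for genes with low counts. For Arntl the spread between mice was also wide, with a coefficient of variation of 58.0% against a median of 21.4% over all genes.

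Counts were rounded. Symbols were matched for 55141 of 55487 identifiers, the other 346 holding 0.0396% of counts. Groups came from the sample labels. Genes were filtered with filterByExpr (minimum count 10), scaled by TMM and fitted over all 10 groups with edgeR 4.0.16 in R 4.3.3 (quasi-likelihood test, Benjamini-Hochberg over 14904 genes, threshold 0.05). Levels are CPM on TMM library sizes, and log2 levels used a prior count of 2. Per-gene positions came from GENCODE M21. Correlations between mice used deviations from group means, and their p-values came from permutation within groups, where the smallest p that 100000 permutations can give is 1e-05.

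The fit was tested on simulated data for semaglutide versus vehicle at 24 weeks over 14904 genes, where 54%, 90%, 98% and 100% of 50 genes each were recovered at log2 changes of 0.5, 1, 1.5 and 2. Of the unchanged genes 10 were called. The changed genes were drawn at random, and the median coefficient of variation between mice was 21.4% over all genes. It was 58.0% for Arntl, 52.4% for Per3 and 48.2% for Dbp, so the recovery rates cannot be read as those of these members. Alternatives were DESeq2 1.42.0, other scalings, no filter, fits of only the groups compared, library sets as a block, a clock position covariate, length and GC covariates and leaving out libraries. The members and lists were chosen with earlier results of these data known. The text names all 10 members in every comparison, the clock partners and liver outputs past the threshold, up to 4 genes of each other list by the joint semaglutide test, and the 8 genes most and 4 least like Arntl and Dbp. Some genes of the feeding and fasting lists are not reported here.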

Additional observations from a re-analysis of the deposited data

Results flagged for a closer look

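Of 100 sets of 1 gene in 1 group, 4 held a mouse far from the others of its group, and chance alone marks about 1 in 20 such sets. Arntl was 18.5 CPM in chow reversal replicate 7 at 24 weeks, where the next highest mouse had 7.22 CPM. Clock was 25.3 CPM in semaglutide replicate 5 at 24 weeks, with the next at 18.5 CPM. Per3 was 57.4 CPM in semaglutide replicate 7 at 16 weeks, 1 of the 3 libraries numbered apart, with the next at 28.1 CPM. Dbp was 335 CPM in semaglutide replicate 4 at 16 weeks, with the next at 192 CPM.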

How the results depend on the processing

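No paired analysis was possible because each mouse carries its own number and was killed once. Sets of consecutive library numbers were fitted as a block instead. Of the 15 calls of a clock gene in a comparison, all 15 kept their direction and 6 kept the call in the 9 settings other than leaving out a library. The number of members called changed by over 1.5 times or to or from 0 as follows, with changes within 1.5 times given last, and the cause was not tested. For semaglutide against vehicle at 8 weeks it went from 0 to 1 with the clock position or the length and GC slopes as covariates and to 2 with only the groups compared, and at 24 weeks from 2 to 1 with library totals or no filter. For chow reversal against vehicle it went from 3 to 1 at 8 weeks with library totals, from 1 to 2 with the clock position and to 3 with length and GC at 16 weeks, and from 2 to 1 at 24 weeks with library totals or only the groups compared. For semaglutide against chow reversal it went from 1 to 0 at 16 weeks with library totals, without the 3 libraries numbered apart, with library sets as a block or with only the groups compared, and from 2 to 1 at 24 weeks with the block, the clock position, length and GC or only the groups compared. For vehicle against chow it went from 3 to 1 with library totals and to 5 with length and GC. For chow reversal against chow it went from 1 to 0 with RLE factors, library totals, no filter or only the groups compared, and for vehicle at 24 against 8 weeks from 0 to 1 with only the groups compared. Smaller rises were from 2 to 3 for semaglutide against vehicle at 24 weeks with only the groups compared, from 2 to 3 for chow reversal against vehicle at 24 weeks and from 3 to 4 for vehicle against chow, each without the libraries numbered apart, with the block or with the clock position, and from 2 to 3 for chow reversal at 24 weeks with length and GC. Leaving out 1 library gave 1 to 2 for semaglutide against vehicle at 24 weeks, 2 to 3 and 1 to 4 for chow reversal at 8 and 24 weeks (4 without chow reversal replicate 7), 0 to 2 and 1 to 2 for semaglutide against chow reversal at 16 and 24 weeks, 3 to 4 for vehicle against chow and 0 to 1 for chow reversal against chow. Within groups, 24 pairs were called with a prior count of 0.5 and 25 without the libraries numbered apart. The length and GC covariates and leaving out single libraries were chosen after seeing the data.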

Other observations

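Genes that answer to feeding, hormones and handling were measured beside the clock, since they can also vary with the hour and state at collection, and their part in the clock results was not tested. Among genes induced by feeding, Srebf1, a regulator of lipid synthesis, was higher with semaglutide than with vehicle at 24 weeks (0.77, SE 0.22, edgeR adjusted p = 0.00634) and lower with chow reversal (-0.55, SE 0.22, adjusted p = 0.0394), whereas Acly, an enzyme that supplies acetyl-CoA for lipid synthesis, was higher with chow reversal (1.04, SE 0.36, adjusted p = 0.0189) and 0.64 with semaglutide (adjusted p = 0.19). Pnpla3 did not pass in either (1.06 with semaglutide, adjusted p = 0.137, and -0.45 with chow reversal, adjusted p = 0.571), but was higher with semaglutide than with chow reversal (1.51, SE 0.53, adjusted p = 0.0415). Among genes induced by fasting, Pdk4, a kinase that restrains glucose oxidation, was lower with semaglutide (-1.13, SE 0.42, adjusted p = 0.0374), and Fgf21 was lower with chow reversal (-1.26, SE 0.44, adjusted p = 0.0183).

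Of 7 genes induced by glucocorticoids, whose level follows the hour and stress, 5 were higher and 1 lower with chow reversal than with vehicle at 24 weeks, including Tat (1.68, SE 0.32, adjusted p = 1.87e-05), in a comparison that 36.1% of all genes passed. With semaglutide 0 passed in edgeR, where 24.3% of all genes did and 3 of the 7 had an unadjusted p under 0.05. Compared directly at 24 weeks, Tat was lower with semaglutide than with chow reversal (-0.98, SE 0.30, adjusted p = 0.0184) and was the 1 gene of the 7 to pass. Between vehicle and chow mice 2 were higher and 3 lower. Of 5 immediate early genes, 1 was higher and 3 lower in vehicle than in chow mice, with Atf3, a stress-induced factor, at 4.14 (SE 0.37, adjusted p = 1.26e-15) and Egr1 at -3.43 (SE 0.43, adjusted p = 4.13e-10). Of 6 heat shock genes Hsp90aa1 was higher in vehicle than in chow (0.45, adjusted p = 0.0277), and of 2 cold-inducible genes Cirbp was lower (-0.54, adjusted p = 0.012).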
